A study of Mus musculus with 5 samples.

Results

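The mitochondrial ribosomal proteins described here are the genes whose symbol starts with Mrpl or Mrps followed by a digit. They were found by applying that rule to the probe sets with a single gene symbol in the array's annotation, which gave 156 of 45101 probe sets and 76 of 18193 genes. All 76 genes passed the filter on dim signal and were among the 12873 genes tested, and each was above the filter on all 5 arrays. The study profiled mouse CD4+ T cells on Affymetrix arrays, and the cells' transgenic T cell receptor recognises MOPC315, a myeloma line derived from plasma cells. All mice were TCR-transgenic SCID mice on a Balb/c background, adult, 7 to 12 weeks old, so the transgene and the immune deficiency were shared by both groups. The 3 activated samples came from draining axillary lymph nodes on day 8 after 100000 MOPC315 cells were placed under the skin in 250 µl of growth factor-reduced Matrigel. The nodes of 12 to 15 mice were pooled in each of 3 independent experiments, and CD4+ cells stained by GB113 were sorted until at least 95% pure. Each of the 2 naive samples was prepared in its own experiment from lymph nodes pooled over mice of this strain that had received no tumor. Values were intensities on a linear scale, 1 per probe set and array. Since each sample was a separate experiment, p-values measure the spread between experiments on pooled mice.

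Mitochondria carry their own ribosome, which translates the few proteins encoded in mitochondrial DNA, all of them subunits of the respiratory chain and ATP synthase. Its proteins are encoded in the nucleus, made in the cytosol and imported, so their transcripts can be measured beside those of any other nuclear gene. The particle has a small subunit that decodes the messenger RNA and a large subunit that forms peptide bonds. Some of its proteins have counterparts in bacterial ribosomes and others are found only in mitochondria. Activated T cells are known to build new mitochondria as they divide.

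The first question is which members differed between activated and naive cells. Of the 76 genes, 6 were higher in activated cells and none was lower, by limma with Benjamini-Hochberg adjustment over all tested genes at a threshold of 0.05. The risers were Mrps6, Mrpl27, Mrpl17, Mrpl50, Mrps16 and Mrpl18, and only Mrps6 rose by more than 1 on the log2 scale. They made up 7.89% of the members, against 6.36% of all tested genes called higher. Of all tested genes 4.14% were called lower. The share called higher was near the background, and the median log2 fold change of the members was 0.05, against -0.03 over all tested genes. Both values moved with single arrays. Only Mrps6 was called when activated replicate 1, activated replicate 2 or naive replicate 2 was left out, against 5.43%, 4.17% and 3.72% of all tested genes called higher. Without naive replicate 1, 2 members were called, against 4.37%. The members' median was 0.17 without naive replicate 2, against -0.04 over all genes, and 0.03 without naive replicate 1, against -0.02. All 11 tested genes of a cell division list rose, with a median log2 fold change of 2.90, among them the proliferation marker Mki67 at 3.93 and the ribonucleotide reductase subunit Rrm2 at 3.70. In RNA from many cells at once, fewer cells of a type and less RNA per cell cannot be told apart.

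Mrps6 encodes the mitochondrial counterpart of bacterial S6, a protein of the small subunit's platform. Intensities are given below with the 3 activated arrays (replicates 1 to 3) before the word against and the 2 naive arrays (replicates 1 and 2) after it. The intensity of Mrps6 was 619, 612 and 639.7 in activated cells (3 arrays) and 230.3 and 268 in naive cells (2 arrays). The activated mean was 624 ± 14.4 (SD, n = 3) and the naive mean 249 ± 26.7 (SD, n = 2), a ratio of 2.50, with a log2 fold change of 1.27 ± 0.15 (SE) and an adjusted p of 0.00048 by limma. The activated arrays lay close together and far above both naive arrays. The other Mrps6 probe set read 314, 277 and 284 against 96.8 and 120.5 and gave a log2 fold change of 1.31. Mrps6 was called in all 18 alternatives in which 1 probe set or value stood for each gene, with log2 fold changes from 1.14 to 1.38 and adjusted p-values from 0.00011 to 0.0084. In RefSeq 19 members overlap another protein-coding gene, and Mrps6 overlaps Slc5a3, the sodium and myo-inositol cotransporter. One Slc5a3 probe set read 213.8, 195 and 228 against 65.5 and 114.8, another 222, 56.3 and 98.6 against 31.2 and 36.8, and the third stayed between 6.3 and 13.1 on all arrays. Whether any Mrps6 probe set reads transcripts shared with Slc5a3 was not tested.

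Among the large subunit proteins with bacterial counterparts, Mrpl27, Mrpl17 and Mrpl18 rose by less. Mrpl27, whose bacterial relative reaches towards the site of peptide bond formation, read 424, 512 and 366 against 288 and 194.6, with a log2 fold change of 0.82 ± 0.21 (SE) and an adjusted p of 0.032. Mrpl17, a protein near the exit of the peptide tunnel, read 372, 341 and 254 against 194.1 and 155.8, with 0.82 ± 0.20 (SE) and an adjusted p of 0.026. Mrpl18, whose bacterial relative binds 5S ribosomal RNA, read 664, 679 and 582 against 432 and 409, with 0.59 ± 0.16 (SE) and an adjusted p of 0.037. In each of the 3 genes the lowest activated array was above the higher naive array, and activated replicate 3 was the lowest of the activated arrays. The other probe set of Mrpl27 gave 0.88. Mrpl17 has 2 other probe sets, both dim. One, at 19.0, 17.7 and 6.9 against 13.9 and 21.5, gave -0.16, and the other, at 4.6, 11.8 and 8.2 against 3.2 and 2.1, did not pass the filter. Mrpl27 lost its call without activated replicate 1 (0.83) or 2 (0.70) or naive replicate 2 (0.55). Mrpl17 lost it when activated replicate 1 (0.71) or 2 (0.77) was left out, as when naive replicate 1 (0.96) or 2 (0.67) was. Mrpl18 lost it without the same arrays (0.56, 0.55, 0.63 and 0.55). Mrpl27 overlaps Eme1, a subunit of a DNA-cutting enzyme, whose probe set read 32.8, 50.8 and 35.4 against 15.9 and 14.3. Mrpl18 overlaps Tcp1, a chaperonin subunit, whose probe set read 1643, 1560.0 and 1434 against 1263 and 1392.

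The remaining risers were Mrps16 and Mrpl50. Mrps16, the counterpart of bacterial S16 in the small subunit, read 524, 552 and 463 against 332 and 293. Its log2 fold change was 0.69 ± 0.16 (SE), with an adjusted p of 0.022. Mrpl50, a large subunit protein with no bacterial counterpart, read 119.9, 95.0 and 92.3 against 61.9 and 49.4, with 0.72 ± 0.20 (SE) and an adjusted p of 0.045. The groups did not overlap in either gene. The other Mrpl50 probe set read 50.3, 73.4 and 77.4 against 74.7 and 72.6, a log2 fold change of -0.13, so the 2 probe sets of Mrpl50 differed in sign as well. Mrps16 lost its call when activated replicate 1 (0.67) or 2 (0.63) was left out, as when naive replicate 1 (0.77) or 2 (0.60) was. Mrpl50 lost it whichever array was left out, with 0.77 without activated replicate 2, 0.78 without activated replicate 3, 0.85 without naive replicate 1 and 0.60 without naive replicate 2. Without activated replicate 1 its other probe set had the higher mean and gave 0.03. With no filter on dim genes 3 members were called (Mrpl18, Mrps16 and Mrps6), and without an intensity trend in limma's variances only Mrps6 was. The shares of all tested genes called higher were then 3.42% and 5.13%. Mrpl18 lost its call under median centring (adjusted p of 0.067), and Mrpl17 (0.34) and Mrpl50 (0.30) lost theirs with the mean of all probe sets. Mrpl50 also lost it with a pseudocount of 64 (0.47).

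**Figure D1:**
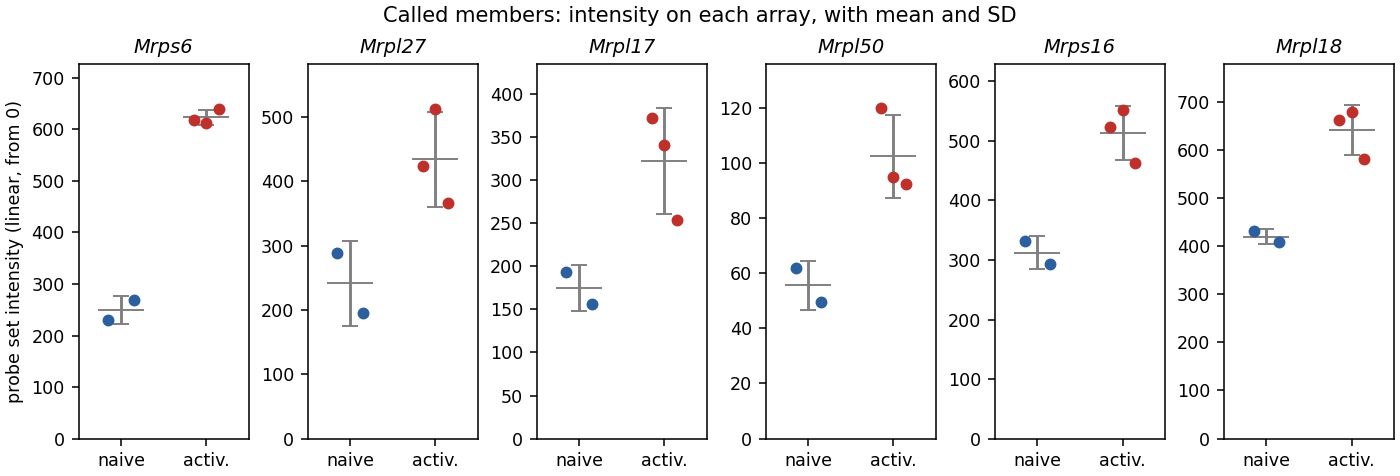
Probe set intensity, on linear axes from 0, of the 6 mitochondrial ribosomal protein genes called higher, with 1 point per array (3 activated, 2 naive) and bars for the mean and SD of each group. In each gene every activated array lies above both naive arrays, and Mrps6 lies at 612 to 639.7 against 230.3 to 268.

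The start regions of 4 of the risers are shown with that of Mrpl12, a stalk protein that was not called, because genes of mitochondrial ribosomal proteins are known for promoters with binding motifs of NRF1 and ETS factors. Each runs 5′ to 3′ on the gene's own strand from 250 bases before to 50 bases after a RefSeq start in build GRCm38.p6. Mrps6 lies at chr16:92058086-92058385 on the plus strand, Mrpl17 at chr7:105811038-105811337 on the minus strand, and Mrps16 at chr14:20393441-20393740 on the minus strand. Mrpl18 lies at chr17:12916042-12916341 on the minus strand and Mrpl12 at chr11:120484387-120484686 on the plus strand. Capitals mark matches, on either strand, to the NRF1 motif (GCGCA, any base, then GCGC), the ETS motif CCGGAAG or the GC box GGGCGGGG. Mrps16 has 2 starts in the table, and the one with more matches is shown.
Mrps6: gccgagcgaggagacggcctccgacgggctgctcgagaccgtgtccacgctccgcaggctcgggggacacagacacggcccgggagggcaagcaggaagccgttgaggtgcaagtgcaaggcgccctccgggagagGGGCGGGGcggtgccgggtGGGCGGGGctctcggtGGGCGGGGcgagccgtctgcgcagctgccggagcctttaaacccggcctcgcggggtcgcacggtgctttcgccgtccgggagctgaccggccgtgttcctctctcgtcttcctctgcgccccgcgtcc
Mrpl17: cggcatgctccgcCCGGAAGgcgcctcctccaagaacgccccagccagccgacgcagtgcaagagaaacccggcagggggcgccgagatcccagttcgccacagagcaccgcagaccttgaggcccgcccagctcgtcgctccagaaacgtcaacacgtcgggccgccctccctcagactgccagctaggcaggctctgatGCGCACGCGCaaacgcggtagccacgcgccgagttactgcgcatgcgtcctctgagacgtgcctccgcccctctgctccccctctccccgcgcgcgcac
Mrps16: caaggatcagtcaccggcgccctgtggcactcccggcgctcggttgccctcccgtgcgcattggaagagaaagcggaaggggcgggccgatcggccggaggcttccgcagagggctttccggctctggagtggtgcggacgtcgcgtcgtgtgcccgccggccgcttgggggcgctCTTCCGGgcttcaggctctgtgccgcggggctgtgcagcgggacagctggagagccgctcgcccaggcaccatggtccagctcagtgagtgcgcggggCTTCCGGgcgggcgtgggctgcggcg
Mrpl18: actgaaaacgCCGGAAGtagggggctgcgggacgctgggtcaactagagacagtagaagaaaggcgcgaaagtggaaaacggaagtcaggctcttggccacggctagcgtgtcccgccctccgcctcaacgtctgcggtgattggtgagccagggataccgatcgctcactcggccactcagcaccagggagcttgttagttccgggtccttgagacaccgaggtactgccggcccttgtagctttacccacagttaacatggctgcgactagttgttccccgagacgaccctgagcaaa
Mrpl12: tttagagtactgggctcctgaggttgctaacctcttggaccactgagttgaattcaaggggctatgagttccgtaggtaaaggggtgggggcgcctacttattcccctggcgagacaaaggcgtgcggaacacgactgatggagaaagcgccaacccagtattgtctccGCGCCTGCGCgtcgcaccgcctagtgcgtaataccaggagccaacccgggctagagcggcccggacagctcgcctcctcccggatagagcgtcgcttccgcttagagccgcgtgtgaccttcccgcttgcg

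The windows differed in what they held. That of Mrps6 held 3 GC boxes and neither an NRF1 nor an ETS match. The Mrpl17 window held 1 NRF1 and 1 ETS match, that of Mrps16 held 2 ETS matches, and that of Mrpl18 held 1. The Mrpl12 window held 1 NRF1 match. RefSeq windows were found for 67 of the 76 genes, 73 windows in all. The NRF1 motif was in 16.4% of the members' windows, in 4.60% of all 32851 windows and in 7.43% of those of genes on the array. The ETS motif was in 34.2%, against 8.86% and 13.0%. The YY1 motif AAGATGGC was in 16.4%, against 2.75% and 3.38%. Other motifs were at shares closer to the background. The GC box was in 24.7%, against 17.6% and 26.8%, and CCAAT was in 39.7%, against 37.4% and 37.4%. The E-box CACGTG was in 9.59%, against 7.15% and 8.72%, and the cyclic AMP element TGACGTCA in 2.74%, against 1.79% and 2.49%. Both strands were searched for every motif, and no match overlapped a match of a different motif in the members' windows.

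The members' fold changes can be set beside these motifs. Of the 25 genes with an ETS match 4 were called higher (Mrpl17, Mrpl18, Mrpl27 and Mrps16), beside 6.36% of all tested genes. The other called members, Mrps6 and Mrpl50, were among the 42 genes without a match. The median log2 fold change was 0.08 both in the 25 and in the 42. Of the 12 genes with an NRF1 match 1 was called, and their median was 0.27, against 0.05 in the 55 without. None of the 12 genes with a YY1 match was called by limma, and their median was 0.17, against 0.06. These are descriptions without a test, and a match is a run of letters, not a measured binding site.

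**Figure D2:**
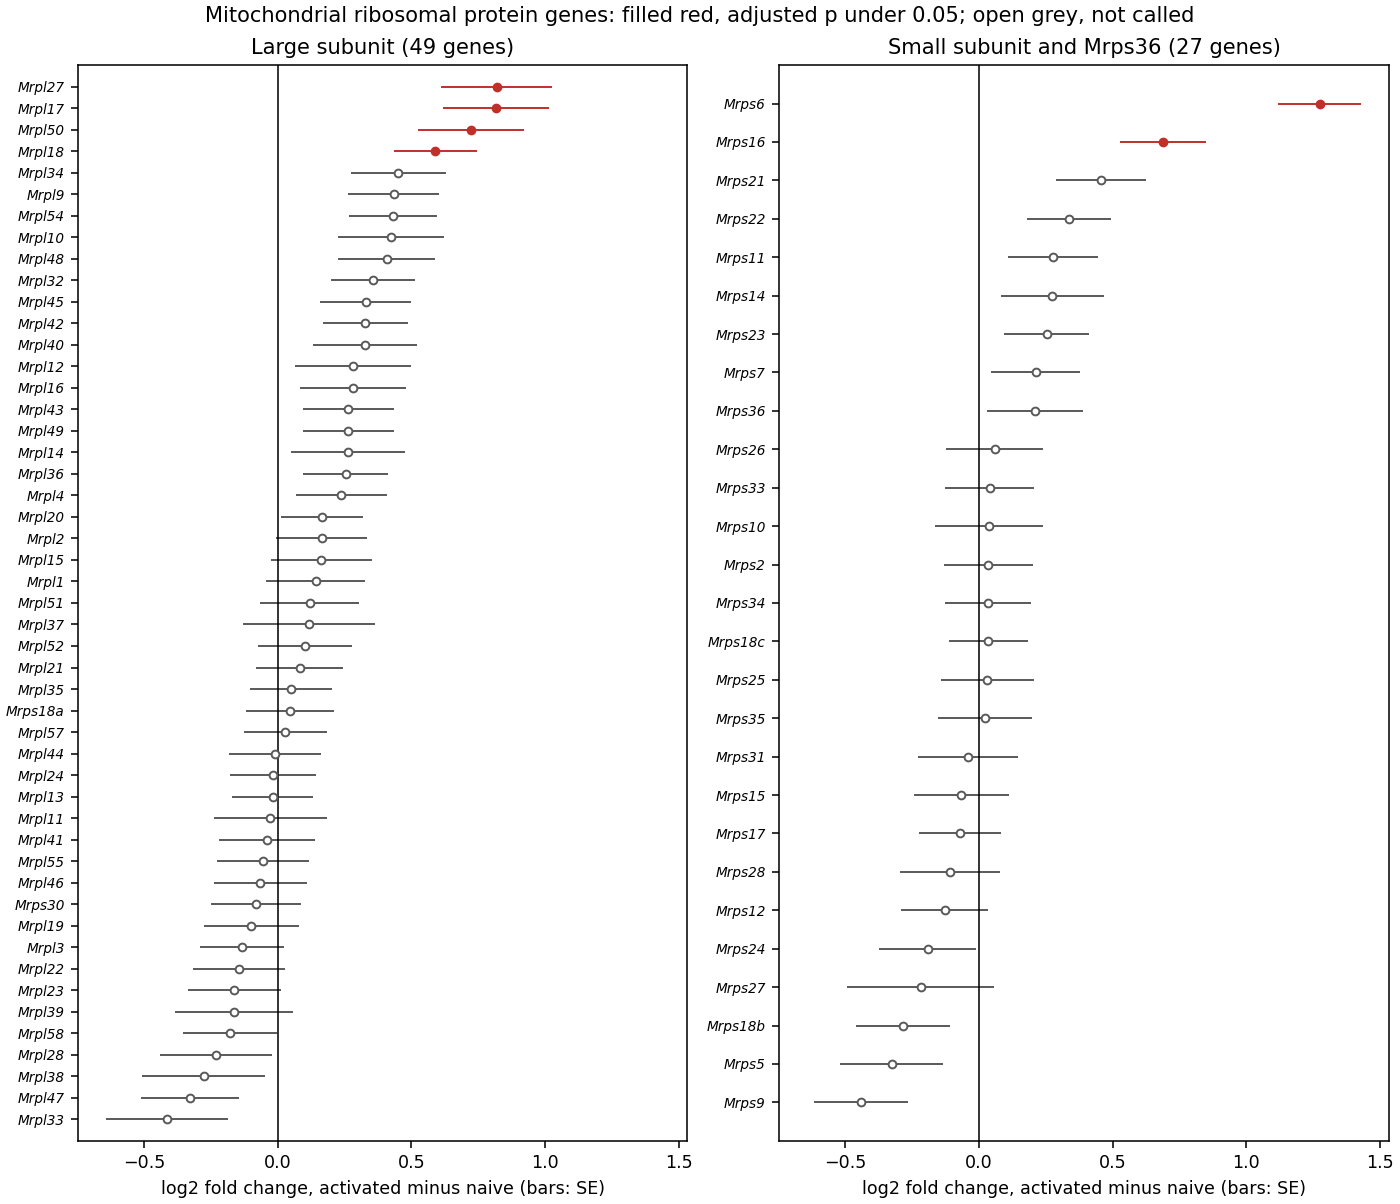
Log2 fold change of all 76 members, activated minus naive, with bars for the standard error, ordered by size in a panel for the 49 large subunit genes and a panel for the others. Filled red points were called and open grey points were not. Mrps6 stands apart at 1.27, the other 5 called genes lie between 0.59 and 0.82, and the rest lie between -0.44 and 0.46.

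The 70 members that were not called ranged from -0.44 to 0.46. Of all 76 members, 48 had a positive and 28 a negative log2 fold change, and 55 were within 0.3 of 0. The 95% interval of every one of the 70 lay within a log2 fold change of 1 in either direction, for 37 it lay within 0.58, which is 1.5-fold, and for 33 it reached beyond. In 7 of them (Mrps21, Mrpl34, Mrpl9, Mrpl54, Mrpl48, Mrpl32 and Mrps9) the unadjusted interval left out 0. Standard errors ran from 0.15 to 0.27, with a median of 0.17, so small shifts in single genes could not be told from 0 with 3 arrays against 2. At an unadjusted p under 0.05 by limma, 12 members were higher and 1 was lower. The share of all tested genes at that threshold was not counted, so these 2 counts have no background beside them. In 24 members, or 31.6%, every activated array lay above both naive arrays, against 20.3% of all tested genes. In 5 members, or 6.58%, every activated array lay below, against 20.7% of all tested genes. Of the 24, 18 were not called.

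Some of the members with the higher and lower fold changes among those not called show how wide the spread was. Mrps21, a small subunit protein with a bacterial counterpart, read 497, 599 and 458 against 379 and 363, a log2 fold change of 0.46 with an adjusted p of 0.12. Mrpl54 read 154.7, 154.9 and 153.9 against 113.4 and 107.6, with 0.43 and an adjusted p of 0.14. Mrpl34 gave 0.45 with an adjusted p of 0.15, and Mrpl48 0.41 with an adjusted p of 0.20. Mrpl9, at 519, 653 and 506 against 389.5 and 426, gave 0.43 with an adjusted p of 0.15. An Mrpl9 probe set without a suffix that marks shared sequence read 486, 551 and 511 against 325 and 349.5. With only probe sets of that kind in the fit Mrpl9 gave 0.59 and was called, with an adjusted p of 0.032. At the low end, Mrps9 read 237, 313 and 278 against 350.1 and 409, a log2 fold change of -0.44 with an adjusted p of 0.15. Mrpl33 gave -0.41 with an adjusted p of 0.31 and overlapped between the groups, and Mrpl47 gave -0.33 with an adjusted p of 0.32. These 8 genes were picked after their values were seen.

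By part of the particle, the 49 tested large subunit proteins held 4 of the risers (8.16%) and had a median log2 fold change of 0.12. The 26 small subunit proteins held Mrps6 and Mrps16 (7.69%) and had a median of 0.03. Of all tested genes 6.36% were called higher. Mrps30 and Mrps18a are counted with the large subunit, where structures place them, and Mrps36, which is now known as a subunit of the 2-oxoglutarate dehydrogenase complex, with neither. The 47 proteins with a bacterial counterpart held 5 risers (10.6%) and the 28 found only in mitochondria held Mrpl50 (3.57%). The median was 0.05 in both classes. The difference between subunits or classes was not tested. Without naive replicate 2 the medians were 0.21 in the large subunit, 0.11 in the small subunit, 0.13 in the genes with bacterial counterparts and 0.21 in the mitochondria-specific ones. Without naive replicate 1 they were 0.03, -0.03, -0.01 and 0.03, and without activated replicate 1 the small subunit's was -0.02.

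None of the 3 stalk proteins of the large subunit, which recruit translation factors, was called by limma. Mrpl12, its repeated protein, read 389.9, 292 and 349 against 219 and 353, with a log2 fold change of 0.28 and an adjusted p of 0.48. Naive replicate 2 lay above 2 of the 3 activated arrays. Mrpl10, which anchors Mrpl12, read 345, 326 and 245 against 252 and 193.8, with 0.42 and an adjusted p of 0.22. Mrpl11, at the stalk base, read 316, 363 and 425 against 299 and 463, with -0.03 and an adjusted p of 0.96. Another Mrpl11 probe set gave 0.44. Elsewhere in the large subunit, Mrpl45, which faces the inner membrane at the tunnel exit, gave 0.33 with an adjusted p of 0.28. Mrpl44, which resembles ribonuclease III, gave -0.01, and Mrpl41, a protein found only in mitochondria, gave -0.04. Mrpl41 read 458, 461 and 449.8 in activated cells and 392 and 560.3 in naive cells, so all activated arrays lay between the naive arrays. Mrps30 gave -0.08.

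In the small subunit, Mrps12, which lies at the decoding site, read 239.5, 202.1 and 213 against 237 and 242, a log2 fold change of -0.13 with an adjusted p of 0.69. Mrps2 gave 0.03, and Mrps5 gave -0.33 with an adjusted p of 0.35, at 101.8, 105.6 and 86.4 against 145.6 and 109.5. Mrps22, in which mutations cause mitochondrial disease, read 253.5, 256 and 236 against 191.4 and 195.1, with 0.34 and an adjusted p of 0.23. Mrps22 did not overlap between the groups, but it did not pass the test. Mrps27, an RNA-binding protein, overlapped widely, at 35.4, 56.9 and 30.3 against 64.2 and 36.5, with -0.22. Mrps36 gave 0.21. None of Mrps18a, Mrps18b and Mrps18c, the relatives of bacterial S18, was called. Mrps18a gave a log2 fold change of 0.05, Mrps18b -0.28 with an adjusted p of 0.37, and Mrps18c 0.03. Mrps18c was nearly level over the 5 arrays, at 572, 567 and 579 against 541 and 577.

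**Figure D3:**
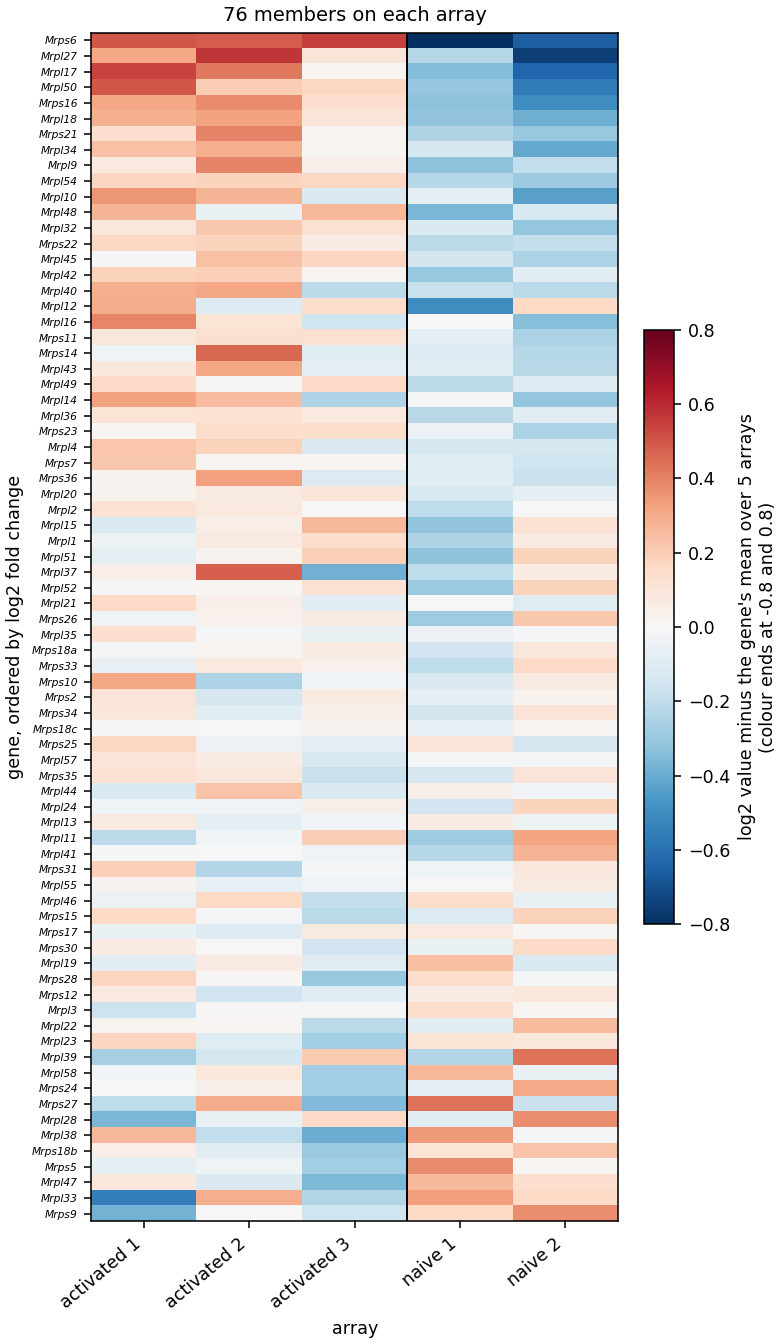
Log2 of intensity plus 16 of each of the 76 members on each array, minus the gene's mean over the 5 arrays, with members ordered by log2 fold change. The genes at the top, from Mrps6 down, are red on the activated and blue on the naive arrays, and in the middle of the order the shades are pale or mixed within both groups.

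Probe sets of one gene often disagreed. Of 42 members with more than 1 probe set, 38 had more than 1 above the filter, and in 28 of these 38 the probe sets had opposite signs. The 28 were Mrpl1, Mrpl11, Mrpl13, Mrpl15, Mrpl17, Mrpl19, Mrpl21, Mrpl28, Mrpl33, Mrpl34, Mrpl35, Mrpl39, Mrpl41, Mrpl44, Mrpl48, Mrpl49, Mrpl50, Mrpl51, Mrpl58, Mrps10, Mrps11, Mrps14, Mrps21, Mrps23, Mrps24, Mrps25, Mrps5 and Mrps9. The range of log2 fold change within a gene was widest in Mrpl17, at 0.97, followed by Mrpl11 at 0.92, Mrpl1 at 0.90 and Mrps14 at 0.88. In each of these 4 genes the low end came from a dim probe set. It read 1.6, 1.4 and 5.9 against 19.0 and 12.9 in Mrpl1, and 22.9, 11.1 and 28.3 against 32.9 and 45.2 in Mrps14. It read 9.0, 7.0 and 17.2 against 17.7 and 25.4 in Mrpl11. Of the brighter Mrpl11 probe sets, one at 320.3, 335 and 322 against 252 and 222 gave 0.44, and another at 316, 363 and 425 against 299 and 463 gave -0.03. Fitting every probe set, 6 of the members' 146 were called higher and 0 lower by limma. That compares with 5.58% and 3.07% of all probe sets. Both Mrps6 probe sets were among the 6.

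**Figure D4:**
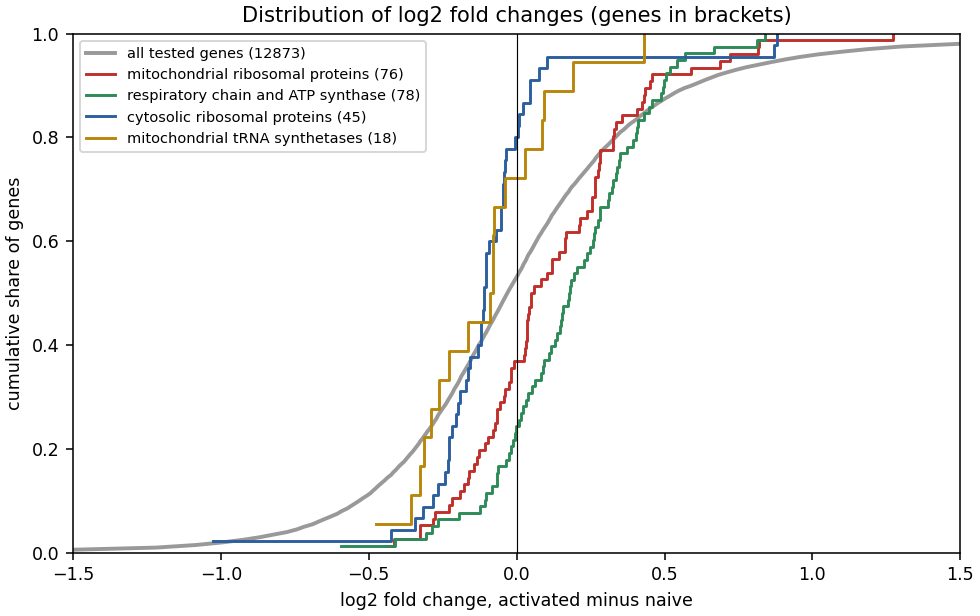
Distribution of log2 fold change, activated minus naive, in the mitochondrial ribosomal proteins, the respiratory chain and ATP synthase subunits, the cytosolic ribosomal proteins, the mitochondrial tRNA synthetases and all tested genes, as the cumulative share of genes. The medians of the members (0.05) and of the respiratory chain (0.18) lie above that of all tested genes (-0.03). The median of the cytosolic ribosomal proteins (-0.11) lies below it as plotted. It does not without activated replicate 3 (0.0046). Over all 19 alternatives the median of the cytosolic ribosomal proteins ran from -0.20 to 0.014, the high end with all 5 arrays kept.

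Of the other genes of the same machinery few passed the test. Of the 4 mitochondrial ribosomal proteins measured under another symbol none was called by limma. Dap3, a GTP-binding small subunit protein, read 440.5, 465 and 460.5 against 333 and 417 (0.28), and Chchd1 read 628, 669.6 and 670.1 against 766 and 886 (-0.32). Gadd45gip1 gave 0.18 and Ptcd3 -0.28. Of 15 translation factors and membrane insertion genes 1 was called. Oxa1l, the insertase that receives newly made respiratory chain proteins, read 220.5, 219.5 and 235 against 137.3 and 138.5, with a log2 fold change of 0.65 and an adjusted p of 0.028. Its probe sets without a shared-sequence suffix gave -0.19. The recycling factor Mrrf gave 0.58 with an adjusted p of 0.068, the recycling factor Gfm2 0.56, and the elongation factor Tufm 0.34. None of these 3, named after their values were seen, passed the test. Mrrf, at 0.58 each time, was called with the mean of all probe sets (adjusted p of 0.042), a filter at the 60th percentile (0.047) and the arrays' split by a spiked control, described below, as a block (0.042). Oxa1l lost its call whichever array was left out, with values from 0.62 to 0.66. Of 32 genes for assembly of the particle and mitochondrial RNA processing, 0 were called in either direction by limma, with a median of -0.13. Of 18 mitochondrial aminoacyl-tRNA synthetases, also 0 were called, with a median of -0.08.

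Among genes that maintain and transcribe mitochondrial DNA and regulators of mitochondrial genes, 1 rose and 2 fell. Of 13 DNA maintenance and transcription genes Dguok, a mitochondrial nucleoside kinase, rose by 0.61 with an adjusted p of 0.040, and the list's median was -0.12. The mitochondrial RNA polymerase Polrmt, picked after its values were seen, gave -0.59 with an adjusted p of 0.085. It was called lower with the split by the spiked control as a block (-0.53, adjusted p of 0.032), with the replicate number as a block (-0.73, 0.023) and without activated replicate 3 (-0.73, 0.041). The replicate block and leaving out activated replicate 3 give the same estimate, because number 3 has no naive array. The transcription factor Tfam gave 0.08. Of 11 regulators 2 fell, or 18.2%, beside 4.14% of all tested genes called lower. Ppargc1b, a coactivator of mitochondrial gene programmes, read 121.7, 121.0 and 104.9 against 225.5 and 259, a log2 fold change of -0.97 with an adjusted p of 0.0049. Pprc1, a related coactivator, read 203.6, 178.9 and 171.5 against 285 and 296, with -0.61 and an adjusted p of 0.039. Nrf1, whose motif is marked above, read 138.4, 162.7 and 136.8 against 219.6 and 210.4, with -0.52 and an adjusted p of 0.085. Its groups did not overlap, and it did not pass the test. With the split by the spiked control as a block Nrf1 was called (-0.53, adjusted p of 0.042). Over all 18 alternatives its log2 fold change ran from -0.59 to -0.11, with adjusted p-values by limma from 0.042 to 0.71. The ETS factor Gabpa gave -0.28, Myc -0.07 with an adjusted p of 0.86, and Ppargc1a -0.27. Ppargc1b lost its call without naive replicate 2, at -0.88 with an adjusted p of 0.059. Dguok lost it whichever array was left out (0.47 to 0.75). Pprc1 kept it without activated replicate 1 and lost it without each of the other arrays (-0.64 to -0.57).

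The proteins that the particle makes work beside nuclear partners, and these were compared as the nearest set. Of 78 tested nuclear subunits of the respiratory chain and ATP synthase 1 rose, Cox8a, a subunit of cytochrome c oxidase, at 824, 874 and 719 against 465 and 419. Its log2 fold change was 0.84 with an adjusted p of 0.0072, and it lost its call without activated replicate 2 (0.78) or naive replicate 2 (0.77). The median of the 78 was 0.18, and in 28 of them every activated array lay above both naive arrays and in 4 below, beside 20.3% and 20.7% of all tested genes. Of 45 tested cytosolic ribosomal proteins 1 rose, Rps27l, by 0.88, and 1 fell, Rpl12, at -1.03, with a median of -0.11. Rpl12 lost its call without activated replicate 2 (-0.88) or naive replicate 2 (-0.71), and Rps27l when activated replicate 1 (0.79) or 2 (0.79) was left out, as when naive replicate 1 (0.95) or 2 (0.67) was. In 1 of the 45 the activated arrays lay above both naive arrays and in 6 below, beside the same shares of all tested genes. The median of the 45 lost its sign without activated replicate 3, at 0.0046, and was -0.20 without naive replicate 2. The median of the 78 was 0.27 without naive replicate 2. None of these differences between lists was tested.

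The arrays themselves differed in ways that touch these values. The spiked bioC hybridisation control had a mean log2 value of 9.31 to 9.48 on activated replicates 1 and 2 and naive replicate 1, and of 7.40 and 7.69 on activated replicate 3 and naive replicate 2. Among the 3 arrays with high bioC the members' median log2 fold change was 0.18, and between the 2 with low bioC it was 0.00, while the medians of all tested genes were -0.04 and -0.03. The respiratory chain gave 0.31 and 0.05. In each of the 6 risers every activated array lay above both naive arrays, so positive values on both sides were fixed beforehand. With high bioC before low, Mrps6 gave 1.36 and 1.21, Mrpl27 0.67 and 0.86, and Mrpl17 0.83 and 0.65. Mrpl50 gave 0.66 and 0.73, Mrps16 0.67 and 0.63 and Mrpl18 0.62 and 0.49. Of all members 35 were positive and 15 negative on both sides. The ratio of 3′ to 5′ actin probe sets was 1.19 to 1.29 on activated arrays and 1.42 and 1.78 on naive arrays, so a sign of RNA quality moved with the groups. The same ratio for Gapdh differed less, at 0.740, 0.712 and 0.685 on activated and 0.742 and 0.786 on naive arrays. The part of RNA quality in the results was not tested.

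Summed intensities of the T cell markers Cd3d, Cd3e, Cd3g and Cd4 were 8760 to 10397 on activated and 8796 to 9136 on naive arrays, and none of the 4 was called by limma. Markers of macrophages summed to 119.9 to 2659 against 199 to 313, and those of granulocytes to 23.8 to 856 against 52.3 to 73.2, with the highest sums on activated replicate 1. None of the 7 macrophage and 3 granulocyte markers was called by limma, and none was at 0. Markers of NK cells summed to 342 to 1122 against 60.4 to 164, and 2 of 3 tested ones (Eomes and Klrc1) rose. In the other marker lists the B cell gene Cd22 rose, and the CD8 gene Cd8b1 and the pancreas gene Ctrb1 fell. The other tested genes of these 3 lists were not called by limma, and not all went the same way. Among B cell genes Pax5 gave 0.57, Cd79a -0.14 and Ms4a1 -0.13. The CD8 gene Cd8a gave -0.35. Among pancreas genes Prss2 gave 0.63, Cel -0.91 and Cela2a -0.98. The part of such cells in the members' values was not tested. Without activated replicate 1, 1 member was called, Mrps6 at 1.28, and the other 5 risers were not. The same held without activated replicate 2 (Mrps6 at 1.29), the array with the lowest macrophage and granulocyte sums.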

How the data were processed

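The deposited values are linear intensities, 1 for each probe set on each array, with a 2% trimmed mean of 100 on every array. Total RNA was extracted with Trizol and labelled with biotin, per the labels' protocols. The scanner software and summary method were not given in the sources used here. Gene symbols came from the array's platform annotation: 34945 probe sets had 1 symbol, 932 several and 64 were controls. For each gene the single-symbol probe set with the highest mean log2 value was used.

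The members, the gene lists and the tests were chosen with earlier results of these data known. Intensities were transformed as log2(intensity + 16), so fold changes of dim genes are understated, and a gene was tested if above the 40th percentile of its array (controls left out) on at least 2 arrays. Activated and naive arrays were compared with limma 3.58.1 in R 4.3.3 (lmFit, eBayes with an intensity trend, two-sided, Benjamini-Hochberg over 12873 genes). The code of the test was checked on simulated data. The number of arrays limits the precision.

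Named by rule were all called members, a fixed panel of 16 members, members whose probe sets differ in sign, the most changed called genes of each list, the mitochondrial ribosomal proteins with another symbol, and the T cell markers and regulators. Genes overlapping a member, other names given as such, and the motifs were picked with the values already in view. A longer ETS and a longer YY1 form were also searched and are not given. The split by bioC was found in the data and is not in the labels. Alternatives were other scalings, filters, pseudocounts, probe set rules, variance settings, blocks and leaving out each array.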

Additional observations from a re-analysis of the deposited data

How the results depend on the processing

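The 6 member calls were kept under quantile normalization, a filter at the 60th percentile, a pseudocount of 1, robust variances, array weights and the bioC block, and no alternative called a member lower. The shares of all tested genes called higher under these settings were, in the same order, 6.53%, 9.36%, 6.37%, 6.66%, 6.50% and 8.46%. The members called numbered 5 with median centring, a pseudocount of 64 or probe sets without a suffix, 4 with the mean of all probe sets, 3 with no filter and 1 with no intensity trend, and 1 to 5 with an array left out, when the members' median ran from 0.027 to 0.17. Of all tested features 5.56%, 6.20% and 6.25% were called higher with median centring, a pseudocount of 64 and probe sets without a suffix. The share was 6.27% with the mean of all probe sets, 3.42% with no filter and 5.13% with no intensity trend. With an array left out it ran from 3.72% to 5.63%. Why counts and medians moved was not tested. With no filter, 1 large subunit gene, 3 genes with bacterial counterparts and 0 mitochondria-specific genes were called. With no intensity trend the numbers were 0, 1 and 0, and 1 for the small subunit. The mean of all probe sets called 2 large subunit genes. Mitochondria-specific calls were also 0 with every probe set fitted, the mean of all probe sets and a pseudocount of 64. The small subunit had 1 on probe sets without a suffix.

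Leaving out an array gave 0 to 3 calls in the large subunit (median 0.033 to 0.21), 1 to 2 in the small, 1 to 5 with bacterial counterparts (median -0.010 to 0.13) and 0 in mitochondria-specific genes (median 0.027 to 0.21). The other genes of mitochondrial translation, with their regulators, had 2 higher and 2 lower. They had 0 higher and 1 to 2 lower with an array left out (median -0.19 to -0.078). They had 4 and 6 with the bioC block, 1 and 1 with every probe set or no filter, 0 and 1 with median centring or no intensity trend, and 0 higher on probe sets without a suffix. The shares of all tested features called higher under these settings are given above. The respiratory chain had 8 higher and 1 lower with the bioC block, beside 8.46% of all tested genes called higher. It had 5 higher with quantile normalization, 4 with every probe set or probe sets without a suffix, 2 with a 60th percentile filter, the mean of all probe sets or robust variances, and 0 to 5 higher and 0 to 1 lower with an array left out. Cytosolic ribosomal proteins had 4 higher and 2 lower with every probe set, 0 and 0 with no intensity trend, 0 higher with no filter, 0 higher and 2 lower on probe sets without a suffix, 2 lower with the mean of all probe sets, and 0 to 2 higher and 0 to 1 lower with an array left out.

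The deviations of activated replicates 1, 2 and 3 from their group mean correlated with those of naive replicate 1 at 0.17, 0.13 and -0.31. With 2 naive arrays the correlations with naive replicate 2 are the same with the sign turned (0.31 for activated replicate 3), so number 2 is no separate check. The numbers were not taken to pair samples. No naive array has number 3, so the replicate number as a block takes up activated replicate 3 and repeats the fold changes without it. With the replicate number as a block 6 members were called, beside 7.57% of all tested genes called higher. The other mitochondrial translation genes then had 1 higher and 5 lower, the respiratory chain 11 higher and 1 lower, and the cytosolic ribosomal proteins 2 higher.

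Fold changes that changed sign were of genes not called, except Mrpl17 (-0.16) and Oxa1l (-0.19) on probe sets without a suffix. Mrpl11 gave 0.44 there, 0.00953 with the mean of all probe sets and 0.046 with the bioC block. Mrpl41 gave 0.15 and 0.10 with the former settings, and Mrpl44 0.090 and 0.11, and 0.042 with array weights and 0.046 with the replicate block. Gabpa gave 0.045 with the mean of all probe sets. With an array left out Mrpl11 ran from -0.33 to 0.27, Mrpl12 from -0.044 to 0.61, Mrpl41 from -0.29 to 0.21, Mrpl44 from -0.12 to 0.051, Mrps18a from -0.075 to 0.17, Mrps18c from -0.010 to 0.079, Mrps2 from -0.014 to 0.11, Mrps27 from -0.52 to 0.087, Mrps30 from -0.18 to 0.021 and Tfam from -0.066 to 0.22.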

Other observations

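Outside the rule for members are 4 probe sets that carry an Mrpl or Mrps symbol together with that of another gene. One for Mrpl30 and Gm6238 read 1442, 1306 and 1069 on the activated and 1660 and 1788 on the naive arrays, and the other was dim, between 1.0 and 16.7. One for Mrps34 and Nme3 read 180.0, 235.6 and 209.6 against 168.1 and 190.4. One for Mrpl53 and Ccdc142 read 225.0, 225.2 and 263.4 against 246.5 and 335. These were not tested.

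Naive replicate 2 was above naive replicate 1 in 23 of the 33 members measured on probe sets with a shared-sequence suffix and in 16 of the 43 measured on the others. Together these were 39 of the 76 members, beside 6471 of the 12873 tested genes. The split by suffix was not counted over all tested genes.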
